A study of Rattus norvegicus with 24 samples.

Results

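The genes described here encode the core calcium handling proteins of the heart muscle cell, followed by gene ID in mRNA sequencing of the rat heart septum. The members were Atp2a2, Pln, Ryr2, Casq2 and Cacna1c, and each ID was kept where its chromosome in the count table was the expected one. Of the 5 genes, 4 were followed among the 30562 genes of the table. Pln, which encodes phospholamban, was not analysed here, and so neither was the Atp2a2 to Pln ratio.

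In a heart muscle cell, a small inflow of calcium through L-type channels in the surface membrane opens ryanodine receptors on the sarcoplasmic reticulum, and the calcium that this store releases starts contraction. Relaxation follows when a pump returns calcium to the store, where a binding protein holds it. Lower pump activity and slower calcium removal are well known features of failing heart muscle.

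The tissue came from 24 Sprague-Dawley rats on day 28 after ischemia-reperfusion of the heart, in 4 groups of 6 named after what was done to brown fat (BAT, brown adipose tissue) and what was infused into the brain ventricles. BATx rats had their BAT ablated and received leptin, the fat hormone that acts on the brain. BATsx rats had a sympathetic denervation of BAT and received leptin. Intact BAT rats received leptin in one group and vehicle in the other. All 4 groups had the cardiac injury, and no operated group received vehicle, so that the operation alone cannot be told apart from the operation under leptin. Every library is from a rat with its own number, and the p-values below measure the spread between these rats.

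Libraries held 71588000 to 122911000 assigned reads. The 7 rats with the highest numbers in the labels, called high-numbered here, stood apart from the other 17 rats, called low-numbered, in the first principal component of all genes, and this boundary was known from that earlier result. The high-numbered rats were 1 of 6 BATx rats, 2 of 6 BATsx rats, 1 of 6 intact BAT rats on leptin and 3 of 6 intact BAT rats on vehicle. What the rat numbers stand for is not given in the sources used here. Results that this split touches are given as designed and again with a term for the split in the model. Mitochondrial reads made up 31.6% ± 3.91 of the high-numbered libraries (SD, n = 7) and 32.9% ± 6.57 of the low-numbered libraries (SD, n = 17). The files name genes by ID alone, so the septum was not checked against markers of heart cell types. In bulk tissue, fewer cells of a type and less RNA per cell cannot be told apart.

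Atp2a2 (ENSRNOG00000001285, chromosome 12, 34072683 to 34122101 on the plus strand of mRatBN7.2, 5761 bp of exons) encodes SERCA2, the pump that returns calcium to the store. Ryr2 (ENSRNOG00000017060, chromosome 17, 58389925 to 58975142, plus strand, 16410 bp of exons) encodes the cardiac ryanodine receptor, the release channel of the store. Casq2 (ENSRNOG00000016243, chromosome 2, 189525960 to 189582267, plus strand, 2594 bp of exons) encodes cardiac calsequestrin, which binds calcium inside the store. Cacna1c (ENSRNOG00000007090, chromosome 4, 151764138 to 152379648, minus strand, 14373 bp of exons) encodes the pore of the cardiac L-type channel. No exon of another gene overlapped theirs. The span of Cacna1c holds an opposite-strand gene with 18067 reads over all libraries, against 201980 for Cacna1c itself.

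The genes moved by unequal amounts between the rat sets, and their promoters are shown as a description. Whether promoter sequence bears on these amounts was not tested. Each sequence runs from 250 bases before to 50 bases after the RefSeq gene start in GRCr8, a later assembly than the one used for counting, on the strand of the gene. The Atp2a2 window is chr12:39733269-39733568 on the plus strand, the Ryr2 window chr17:63081277-63081576 on the plus strand, the Casq2 window chr2:192214306-192214605 on the plus strand and the Cacna1c window chr4:154051699-154051998 on the minus strand. Capitals mark the GC box GGGCGG, the CCAAT box CCAAT, the TATA box TATAAA and the E box CANNTG on either strand.
Atp2a2: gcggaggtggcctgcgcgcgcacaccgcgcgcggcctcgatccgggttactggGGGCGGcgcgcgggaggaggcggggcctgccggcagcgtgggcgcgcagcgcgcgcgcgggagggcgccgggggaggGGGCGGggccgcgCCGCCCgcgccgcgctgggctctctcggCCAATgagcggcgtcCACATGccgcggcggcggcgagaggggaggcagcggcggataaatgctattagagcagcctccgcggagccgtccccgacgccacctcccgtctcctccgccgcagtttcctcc
Ryr2: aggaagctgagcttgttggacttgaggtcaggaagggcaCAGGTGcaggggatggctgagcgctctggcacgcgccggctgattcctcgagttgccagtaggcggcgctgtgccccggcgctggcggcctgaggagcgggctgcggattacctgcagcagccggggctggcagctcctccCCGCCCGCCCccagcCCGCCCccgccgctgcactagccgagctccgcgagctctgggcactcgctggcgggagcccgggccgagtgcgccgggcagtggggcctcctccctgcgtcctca
Casq2: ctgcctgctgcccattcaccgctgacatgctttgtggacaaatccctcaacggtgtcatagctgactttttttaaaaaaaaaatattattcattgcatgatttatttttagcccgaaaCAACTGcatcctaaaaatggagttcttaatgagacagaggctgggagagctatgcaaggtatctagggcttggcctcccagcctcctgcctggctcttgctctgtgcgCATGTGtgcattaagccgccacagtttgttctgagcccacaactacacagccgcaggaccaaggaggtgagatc
Cacna1c: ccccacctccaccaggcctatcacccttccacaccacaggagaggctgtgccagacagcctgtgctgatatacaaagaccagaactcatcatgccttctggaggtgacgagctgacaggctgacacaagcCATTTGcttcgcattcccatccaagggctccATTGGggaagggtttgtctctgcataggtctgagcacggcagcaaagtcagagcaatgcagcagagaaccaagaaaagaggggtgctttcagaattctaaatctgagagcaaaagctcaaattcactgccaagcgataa
Atp2a2 and Ryr2 had GC-rich windows (79.0% and 73.0% G and C), with 52 and 28 CG pairs. Casq2 and Cacna1c had 47.7% and 51.7% G and C, with 6 and 4 CG pairs, against medians of 51.7% and 7 over 33469 rat promoters of the same length. Atp2a2 and Ryr2 each held 3 GC boxes, of which a pair in Ryr2 overlap each other, and Casq2 and Cacna1c held 0. A GC box was found in 33.1% of all promoters. Atp2a2 and Cacna1c each held 1 CCAAT box, found in 37.5% of all promoters. Casq2 held 2 E boxes and the other members 1 each, and 72.1% of all promoters held at least 1. The TATA box (14.2% of all promoters), the GATA motif AGATAA (11.6%), the CArG box (1.64%) and the MEF2 motif (0.565%) had no match in these 4 windows. A match describes the letters and is not a bound site.

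Every member was higher in high-numbered rats than in low-numbered rats. Levels are CPM after TMM scaling, divided by the exonic length in kilobases (CPM per kb), which allows genes to be compared. Atp2a2, the calcium pump gene, averaged 1660.4 CPM per kb ± 83.4 in high-numbered rats (SD, n = 7) and 181 ± 75.2 in low-numbered rats (SD, n = 17), a fold of 9.19. Ryr2, the release channel gene, averaged 85.3 ± 16.6 CPM per kb in high-numbered rats and 11.4 ± 3.66 in low-numbered rats, a fold of 7.47. Casq2, the store's binding protein gene, averaged 498 ± 97.0 CPM per kb in high-numbered rats and 205 ± 54.6 in low-numbered rats, a fold of 2.43. Cacna1c, the L-type channel gene, averaged 10.9 ± 3.30 CPM per kb in high-numbered rats and 4.34 ± 1.27 in low-numbered rats, a fold of 2.52.

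No member overlapped between the sets, and the share of all tested genes without overlap was not counted. The lowest high-numbered rat had 1482 CPM per kb of Atp2a2, 60.6 of Ryr2, 381 of Casq2 and 7.16 of Cacna1c. The highest low-numbered rat had 298, 16.0, 289 and 6.71 CPM per kb of the same genes. In the edgeR model with both groups and sets, the log2 difference of high minus low was 3.14 ± 0.22 (SE) for Atp2a2, 2.86 ± 0.16 for Ryr2, 1.22 ± 0.15 for Casq2 and 1.33 ± 0.11 for Cacna1c. All 4 members were among the 67.2% of 17347 tested genes that differed in that term. Because the split came from the same libraries, these values are a description. The median absolute log2 difference over all tested genes was 0.71. Only 0.98% of genes had a larger absolute difference than Atp2a2, and 1.59% a larger one than Ryr2, but 25.3% exceeded Casq2 and 21.5% exceeded Cacna1c.

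The members together took 0.904% to 1.09% of the reads of a high-numbered library and 0.0994% to 0.312% of a low-numbered one. Depth and transcript length moved with the same split. High-numbered libraries held 96576100 to 122911000 reads and low-numbered libraries 71588000 to 108084000. The length gradient, which is the median centred log2 CPM of genes with the longest exons minus that of genes with the shortest, was 0.343 ± 0.104 in high-numbered rats (SD, n = 7) and -0.172 ± 0.157 in low-numbered rats (SD, n = 17). The part of depth and length in the difference was not tested.

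The order of the genes changed with the split. Casq2 exceeded Atp2a2 per kilobase in 0 of 7 high-numbered libraries and in 10 of 17 low-numbered libraries. Ryr2 exceeded Cacna1c in 7 of 7 high-numbered libraries and in 17 of 17 low-numbered libraries.

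**Figure D1:**
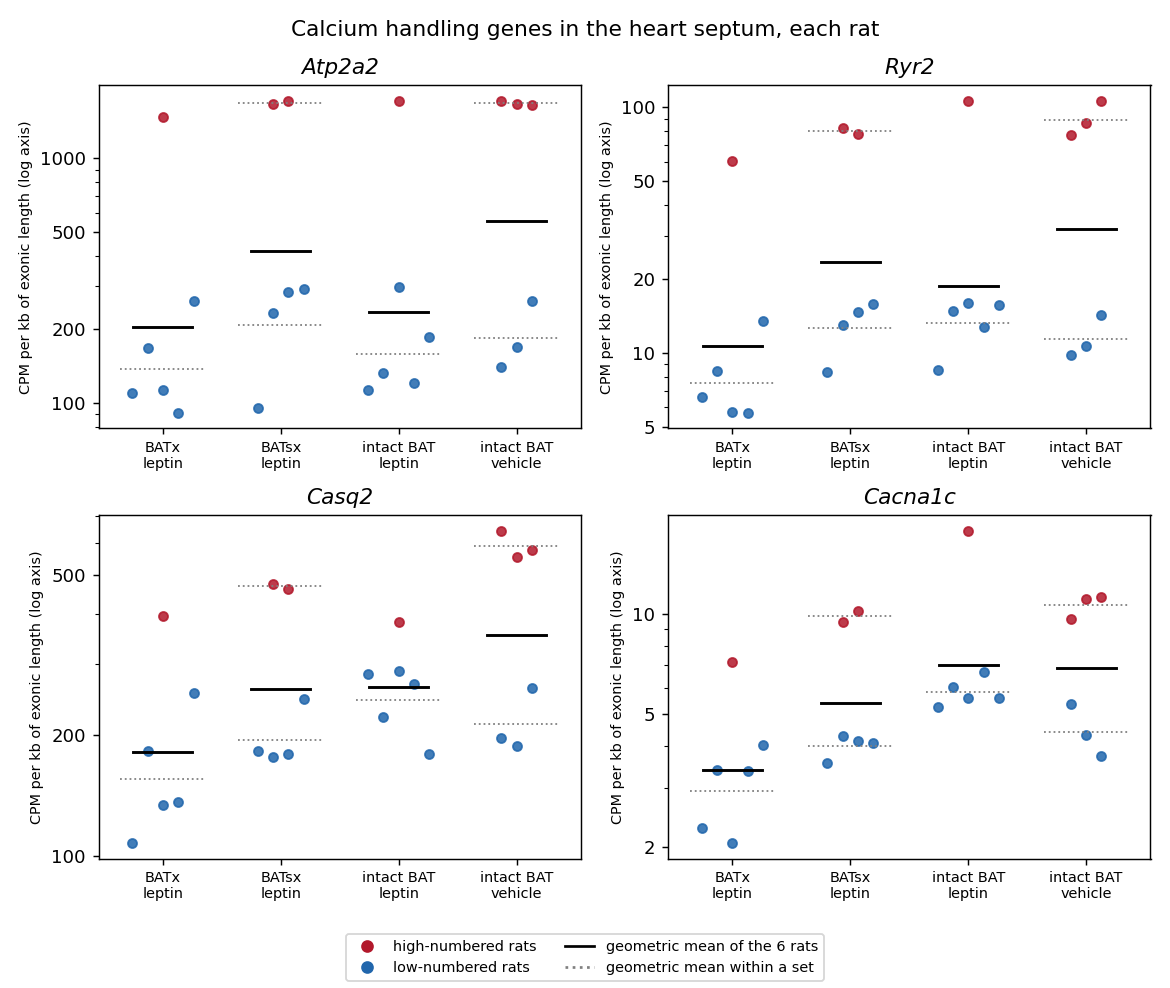
Level of each calcium handling gene in CPM per kb of exon (log axis) for every rat, by group, with high-numbered rats in red, low-numbered rats in blue, the geometric mean of the 6 rats as a black bar and that within a set as a dotted line. High-numbered rats lie above all low-numbered rats in each panel. The low-numbered intact BAT rats on leptin (5.24 to 6.71 CPM per kb of Cacna1c) lie above the low-numbered BATx rats (2.05 to 4.04). The share of all tested genes separated in these ways was not counted.

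Across the groups as designed, the spread of the pump gene covered both rat sets. Atp2a2 had 91.1, 140.0 and 1482 CPM per kb (lowest, median and highest) in BATx rats. In BATsx rats it had 95.1, 288 and 1714 CPM per kb. It had 112.7, 159.9 and 1724 CPM per kb in intact BAT rats on leptin and 139.8, 957 and 1711 in intact BAT rats on vehicle. The 4 groups overlapped over nearly their whole ranges, and the group with the most high-numbered rats, vehicle, had the highest median.

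Ryr2 was arranged in the same way. It had 5.69, 7.49 and 60.6 CPM per kb (lowest, median and highest) in BATx rats, and 8.38, 15.2 and 82.1 in BATsx rats. In intact BAT rats it had 8.49, 15.2 and 107 CPM per kb on leptin and 9.79, 45.6 and 106 on vehicle. BATx rats had the lowest values and the ranges of all groups overlapped.

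Casq2 had 108, 159 and 395 CPM per kb (lowest, median and highest) in BATx rats, and 176.4, 214 and 474 in BATsx rats. In intact BAT rats it had 179.5, 276 and 381 CPM per kb on leptin and 188, 408 and 644 on vehicle. Its groups overlapped too, with the highest values in vehicle rats.

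Cacna1c had 2.05, 3.38 and 7.16 CPM per kb (lowest, median and highest) in BATx rats, and 3.57, 4.22 and 10.2 in BATsx rats. In intact BAT rats it had 5.24, 5.82 and 17.8 CPM per kb on leptin and 3.75, 7.50 and 11.2 on vehicle. Its groups overlapped, but its highest value, in the high-numbered leptin rat with intact BAT, lay above the 7.16 to 11.2 CPM per kb of the other 6 high-numbered rats.

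A test for any difference among the 4 groups passed for 0 of 4 members as designed (edgeR quasi-likelihood test, adjusted p = 0.639 for Atp2a2, 0.546 for Ryr2, 0.352 for Casq2 and 0.279 for Cacna1c), where 0.0692% of tested genes passed. With the set term, 1 of 4 members passed and 10.3% of tested genes did. That member was Cacna1c (edgeR adjusted p = 0.00306), whereas Ryr2 (edgeR adjusted p = 0.0607), Casq2 (0.149) and Atp2a2 (0.556) missed the threshold of 0.05.

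The comparison of leptin with vehicle in rats with intact BAT asks how the infusion bears on the injured heart. As designed, 0 of 4 members passed with edgeR, 0 had an unadjusted p under 0.05, and 0.674% of tested genes passed (edgeR, 4059 genes at an unadjusted p under 0.05). DESeq2 also called 0 of the 4, where it called 10% of its tested genes. Limma-voom with sample weights called 4 of 4 as lower with leptin, where it called 60.7% of tested genes in either direction. Leptin minus vehicle was -1.12 ± 0.92 (log2, SE) for Atp2a2, -0.81 ± 0.81 for Ryr2, -0.58 ± 0.38 for Casq2 and 0.05 ± 0.39 for Cacna1c.

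Adding the set term, leptin minus vehicle became -0.12 ± 0.29 for Atp2a2, 0.19 ± 0.21 for Ryr2, 0.00 ± 0.20 for Casq2 and 0.47 ± 0.14 for Cacna1c (log2, SE). Cacna1c then passed (edgeR adjusted p = 0.0467), as 1 of 4 members where 6.13% of tested genes passed. In low-numbered rats Cacna1c had 5.24 to 6.71 CPM per kb on leptin (n = 5) and 3.75 to 5.35 on vehicle (n = 3), with a slight overlap. In high-numbered rats it had 17.8 CPM per kb in the 1 leptin rat and 9.64 to 11.2 in the 3 vehicle rats. The call was lost in 9 of 12 fits that left out 1 library of these groups (log2 0.39 to 0.56, edgeR adjusted p = 0.0332 to 0.157), and held only without leptin replicate 3 or 5 or vehicle replicate 1. It was also lost with the length gradient (0.42 ± 0.13, edgeR adjusted p = 0.084, where 2.47% of tested genes passed) and in low-numbered rats alone (0.38 ± 0.19, edgeR adjusted p = 0.285).

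The comparison of BATx with intact BAT, both on leptin, asks what the presence of the fat changes, and it held the clearest difference of a member. Cacna1c had 2.05, 2.27, 3.38, 3.39 and 4.04 CPM per kb in the 5 low-numbered BATx rats, against 5.24, 5.59, 5.60, 6.03 and 6.71 in the 5 low-numbered intact BAT rats. In high-numbered rats it had 7.16 CPM per kb in the BATx rat and 17.8 in the intact BAT rat. Within each set every BATx rat lay below every intact BAT rat on leptin, though the high-numbered set held only 1 rat of each group. The share of all tested genes separated in this way was not counted.

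As designed, 0 of 4 members passed for BATx against intact BAT (edgeR), where 3.03% of tested genes passed. An unadjusted p under 0.05 was found for 1 of 4, Cacna1c, and for 3118 of 17347 tested genes. Cacna1c differed by -1.07 ± 0.39 (log2, SE, edgeR adjusted p = 0.128), with an adjusted p of 0.0557 by DESeq2, which called 7.59% of its tested genes, and 0.0152 by limma-voom with sample weights, which called 17.4%. The other members differed by -0.21 ± 0.91 (Atp2a2), -0.79 ± 0.81 (Ryr2) and -0.42 ± 0.38 (Casq2).

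In the model with the set term, 2 of 4 members passed, both lower in BATx rats, where 18.6% of tested genes passed in either direction. The estimates of the other members were also below 0. Cacna1c fell by 1.01 ± 0.14 on the log2 scale (edgeR adjusted p = 0.000737), and 0.0115% of tested genes had a smaller p. Leaving out each of the 12 libraries in turn gave -1.12 to -0.92 and kept the call every time (edgeR adjusted p = 6.84e-05 to 0.00359). It also passed in low-numbered rats alone (-0.95 ± 0.17, edgeR adjusted p = 0.0139), where 11.4% of tested genes passed.

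Ryr2, the release channel gene, was the second member that passed with the set term. It had 5.69, 5.76, 6.60, 8.39 and 13.4 CPM per kb in low-numbered BATx rats and 8.49, 12.7, 14.8, 15.6 and 16.0 in low-numbered intact BAT rats on leptin. In the high-numbered rats it had 60.6 CPM per kb in the BATx rat and 107 in the intact BAT rat. The sets of values overlapped among low-numbered rats, where 1 BATx rat reached the intact BAT range. Ryr2 fell by 0.77 ± 0.21 on the log2 scale (edgeR adjusted p = 0.0131), and leaving out each library kept the call (-0.98 to -0.69, edgeR adjusted p = 0.00097 to 0.0435). In low-numbered rats alone it missed the threshold (-0.76 ± 0.25, edgeR adjusted p = 0.057).

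Casq2 and Atp2a2 missed the threshold with the set term. The median of the 4 members was -0.64 on the log2 scale. Over all tested genes, which went both ways, the median was 0.000712 and the median absolute value 0.315. Casq2 differed by -0.51 ± 0.19 between BATx and intact BAT rats on leptin (edgeR adjusted p = 0.057) and Atp2a2 by -0.20 ± 0.28 (edgeR adjusted p = 0.657).

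The length gradient moved with these groups as well. Among low-numbered rats it was -0.239 ± 0.192 in BATx rats (SD, n = 5), -0.229 ± 0.0975 in BATsx rats (n = 4), -0.0499 ± 0.160 in intact BAT rats on leptin (n = 5) and -0.186 ± 0.0578 on vehicle (n = 3). Across the 17 low-numbered libraries the log2 CPM of Cacna1c had r = 0.638 with the gradient and that of Ryr2 r = 0.0804, as a description of libraries that share their groups. With the gradient and the set term in the model, Cacna1c differed by -0.93 ± 0.14 (edgeR adjusted p = 0.00477) and Ryr2 by -0.81 ± 0.22 (edgeR adjusted p = 0.0302) between BATx and intact BAT rats on leptin, where 7.48% of tested genes passed.

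Of the 5 low-numbered intact BAT rats on leptin, 4 were numbered 56 to 62, lower than any BATx rat. With the set term and without those 4, the difference between BATx and intact BAT was -1.09 ± 0.20 for Cacna1c (edgeR adjusted p = 0.0543) and -0.92 ± 0.28 for Ryr2 (edgeR adjusted p = 0.183). Both values were at least as large as with all rats, and neither passed with the remaining 2 leptin rats, where 0.027% of tested genes did.

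The comparison of BATsx with intact BAT, both on leptin, asks the same of the sympathetic nerves of the fat. Cacna1c had 3.57 to 4.31 CPM per kb in the 4 low-numbered BATsx rats, below the 5.24 to 6.71 of low-numbered intact BAT rats on leptin. In high-numbered rats it had 9.48 and 10.2 CPM per kb in BATsx rats and 17.8 in the intact BAT rat, so that the groups did not overlap within either set. The share of all tested genes without such overlap was not counted here either.

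As designed, 0 of 4 members passed for BATsx against intact BAT (edgeR), 0 had an unadjusted p under 0.05, and 0% of tested genes passed (2836 at an unadjusted p under 0.05). DESeq2 and limma-voom with sample weights called 0 of the 4 as well, where they called 2.67% and 22.8% of their tested genes. The log2 difference was 0.73 ± 0.91 for Atp2a2, 0.28 ± 0.81 for Ryr2, 0.08 ± 0.37 for Casq2 and -0.39 ± 0.39 for Cacna1c (SE). When the set term was added, 1 of 4 members passed and 6.65% of tested genes did. Cacna1c fell by 0.60 ± 0.14 on the log2 scale (edgeR adjusted p = 0.0245), and this call was lost in 6 of 12 fits that left out 1 library (-0.63 to -0.52, edgeR adjusted p = 0.0115 to 0.0675), namely when BATsx replicate 2, 3 or 4 was absent, or one of leptin replicates 1, 2 and 4. It was also lost in low-numbered rats alone (-0.53 ± 0.18, edgeR adjusted p = 0.112, where 0 of 4 members and 0.00559% of tested genes passed) and with the length gradient (-0.52 ± 0.13, edgeR adjusted p = 0.0741, where 0.0115% of tested genes passed).

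These 3 comparisons share the leptin rats with intact BAT, in which Cacna1c was high within each rat set, so they are not separate evidence about those rats. The values of Cacna1c with the set term were 0.47 for leptin against vehicle, -1.01 for BATx against intact BAT and -0.60 for BATsx against intact BAT.

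BATx rats on leptin were also set against intact BAT rats on vehicle, which differ in both the operation and the infusion. Here 0 of 4 members passed as designed with edgeR, where 0% of tested genes did (1892 at an unadjusted p under 0.05), and 2 of 4 members, Casq2 and Cacna1c, had an unadjusted p under 0.05. DESeq2 called 0 of the 4, where it called 0.114% of its tested genes, and limma-voom with sample weights 4 of 4 as lower in BATx rats, where it called 55.7% in either direction. BATx minus vehicle was -1.33 ± 0.92 for Atp2a2, -1.60 ± 0.82 for Ryr2, -0.999 ± 0.38 for Casq2 and -1.02 ± 0.39 for Cacna1c (log2, SE, edgeR adjusted p = 0.457 to 0.511). With the set term these became -0.33 ± 0.29, -0.58 ± 0.21, -0.51 ± 0.20 and -0.54 ± 0.14 in the same order of genes, and 0 of 4 members and 0% of tested genes passed (edgeR adjusted p = 0.438 to 0.765). An unadjusted p under 0.05 was then found for 3 of 4 members, Atp2a2 being the exception, and for 1487 of 17347 tested genes.

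BATsx rats on leptin were set against intact BAT rats on vehicle in the same way. The log2 difference as designed was -0.39 ± 0.91 for Atp2a2, -0.52 ± 0.81 for Ryr2, -0.49 ± 0.38 for Casq2 and -0.34 ± 0.39 for Cacna1c (SE). Here 0 of 4 members passed as designed with edgeR, 0 had an unadjusted p under 0.05, and 0% of tested genes passed (348 at an unadjusted p under 0.05). DESeq2 called 0 of the 4, where it called 0% of its tested genes, and limma-voom with sample weights 4 of 4 as lower in BATsx rats, where it called 46.4% in either direction. With the set term the values were 0.18 ± 0.29 for Atp2a2, 0.04 ± 0.21 for Ryr2, -0.25 ± 0.19 for Casq2 and -0.13 ± 0.14 for Cacna1c (log2, SE), each within 2 SE of 0.

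BATx against BATsx rats, both on leptin, gave values below 0 for all 4 members, none of which passed. As designed, BATx minus BATsx was -0.95 ± 0.92 for Atp2a2, -1.08 ± 0.81 for Ryr2, -0.51 ± 0.38 for Casq2 and -0.68 ± 0.39 for Cacna1c (log2, SE). In this fit 0 of 4 passed with edgeR and 0% of tested genes did (778 at an unadjusted p under 0.05), and DESeq2 and limma-voom with sample weights called 0 of the 4, where they called 0% and 0.311% of their tested genes. With the set term, the values were -0.50 ± 0.29 for Atp2a2, -0.62 ± 0.21 for Ryr2, -0.27 ± 0.19 for Casq2 and -0.41 ± 0.14 for Cacna1c (log2, SE). In that fit 0 of 4 passed (edgeR adjusted p = 0.512 to 0.698), where 0% of tested genes did. An unadjusted p under 0.05 was found for 2 of 4, Ryr2 and Cacna1c, and for 1482 of 17347 tested genes.

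**Figure D2:**
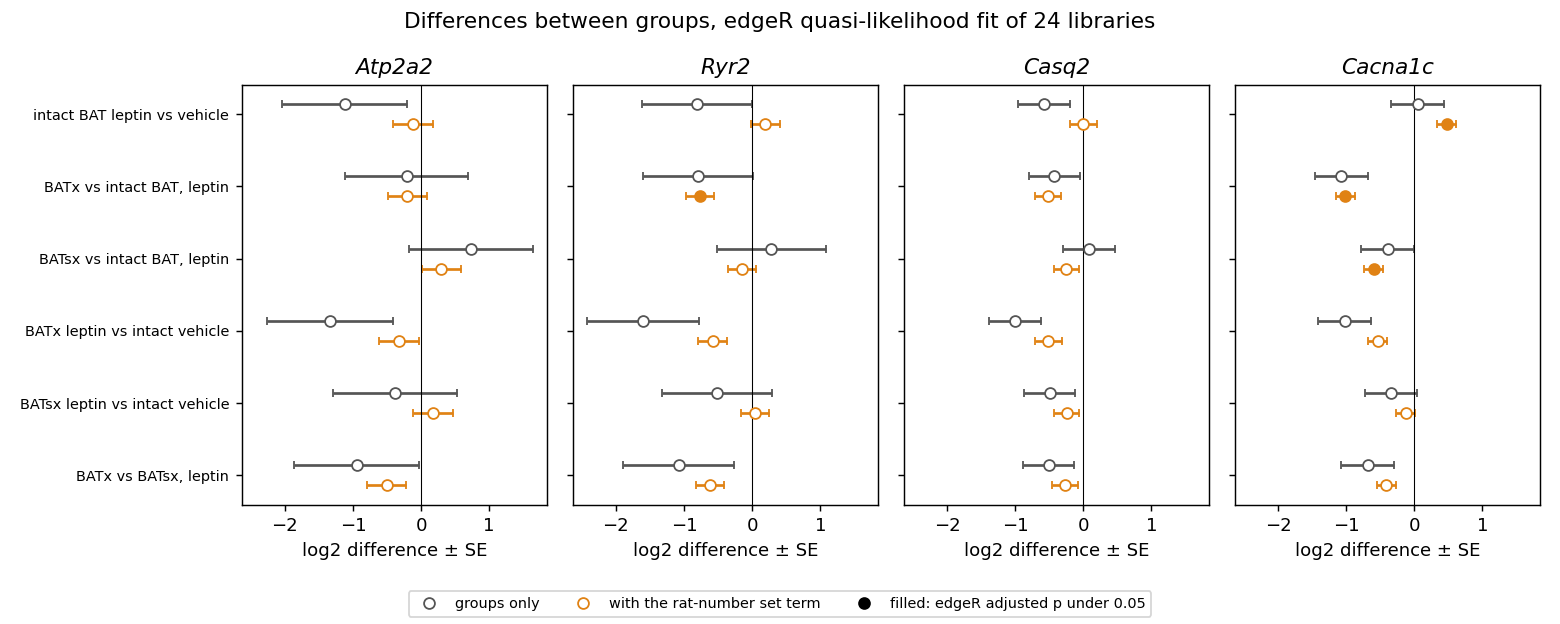
Log2 difference of each calcium handling gene with its SE (edgeR, 24 libraries) in 6 comparisons, with groups alone in grey and with the rat-number set term in orange. Filled points have an adjusted p under 0.05. SEs shrink with the set term, for Atp2a2 in leptin against vehicle to 0.29, and filled points appear for Cacna1c in 3 comparisons and for Ryr2 in 1.

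Protein levels and calcium movement are not measured by these mRNA libraries. Because Pln was not analysed, pump mRNA was described relative to release channel mRNA, as the ratio of Atp2a2 to Ryr2, each per kilobase. This ratio was 16.0, 19.5 and 24.5 (lowest, median and highest) in BATx rats and 11.3, 18.9 and 22.0 in BATsx rats. It was 8.98, 12.6 and 18.7 in intact BAT rats on leptin and 14.3, 17.1 and 22.2 in intact BAT rats on vehicle. Intact BAT rats on leptin had the lowest ratios, and their range overlapped that of every other group. The mean was 19.3 ± 3.01 in BATx rats, 18.2 ± 3.66 in BATsx rats, 13.1 ± 3.79 in intact BAT rats on leptin and 17.6 ± 2.95 on vehicle (SD, n = 6 each).

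BATx rats exceeded intact BAT rats on leptin by 0.60 on the log2 scale in this ratio (exact two-sided permutation test, p = 0.0108, adjusted p = 0.195 over the 18 comparisons of 3 ratios). Permuting within the rat sets gave the same difference of 0.60 (exact p = 0.0119, adjusted p = 0.214). Intact BAT rats on leptin differed from vehicle rats by -0.46 (exact permutation p = 0.0476, adjusted p = 0.257) and BATsx rats from intact BAT rats on leptin by 0.50 (exact permutation p = 0.0498, adjusted p = 0.257). Permuting within the rat sets gave -0.36 (exact p = 0.107, adjusted p = 0.276) and 0.43 (exact p = 0.0661, adjusted p = 0.238) for these comparisons. With 6 rats in each group the smallest exact p was 0.00216, and no ratio passed after adjustment over the 18 comparisons.

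The ratio of pump to release channel was on average higher in high-numbered rats, at 20.0 ± 3.26 (SD, n = 7), than in low-numbered rats, at 15.9 ± 3.66 (SD, n = 17). The ratio of Atp2a2 to Casq2 was 3.43 ± 0.639 in high-numbered rats and 0.896 ± 0.315 in low-numbered rats. The ratio of Atp2a2 to Cacna1c was 161 ± 34.2 in high-numbered rats and 44.0 ± 18.6 in low-numbered rats. The first of these ratios overlapped between the sets (15.5 to 24.5 against 8.98 to 19.95), and the other two did not.

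Between groups, the ratio of Atp2a2 to Casq2 had medians of 0.966 in BATx rats, 1.45 in BATsx rats, 0.817 in intact BAT rats on leptin and 1.83 in intact BAT rats on vehicle. The ratio of Atp2a2 to Cacna1c had medians of 52.2 in BATx rats, 70.0 in BATsx rats, 27.7 in intact BAT rats on leptin and 109 on vehicle. The lowest adjusted p of these 12 comparisons was 0.257 (exact permutation test, adjusted over all 18).

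**Figure D3:**
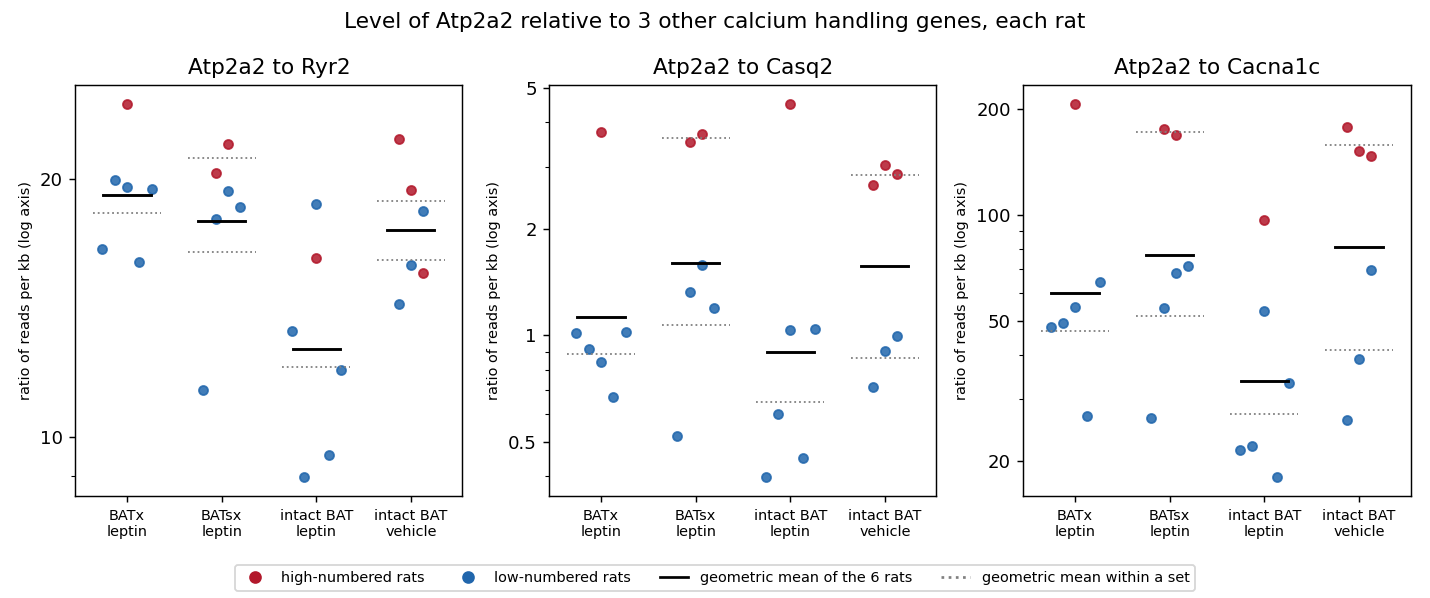
Ratio of Atp2a2 to Ryr2, Casq2 and Cacna1c per kilobase (log axes) for every rat, by group, with high-numbered rats in red, low-numbered rats in blue, the geometric mean of the 6 rats as a black bar and that within a set as a dotted line. The Atp2a2 to Ryr2 ratio stays between 8.98 and 24.5 over both sets, while the other ratios lie higher in every high-numbered rat than in any low-numbered rat.

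How far the members moved together was measured within the 17 low-numbered rats, since the rat sets form separate clusters. Atp2a2 and Ryr2, pump and release channel, had r = 0.79 across the log2 CPM of these libraries (permutation p = 0.00027, adjusted p = 0.00162 over 6 pairs) and rho = 0.843 (permutation p = 6.0e-05, adjusted p = 0.00036). Without the 2 libraries farthest from the median of Atp2a2, r was 0.726 (permutation, adjusted p = 0.0157), and with each group centred on its mean it was 0.891. In the 7 high-numbered rats r was 0.648 (exact permutation p = 0.147, adjusted p = 0.331).

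The pairs without the pump gene came next. Casq2 and Cacna1c had r = 0.728 and rho = 0.586 (permutation, adjusted p = 0.00267 and 0.03), and r = 0.602 and rho = 0.468 without the 2 farthest libraries (adjusted p = 0.0477 and 0.165). Ryr2 and Cacna1c had r = 0.689 and rho = 0.635 (permutation, adjusted p = 0.00409 and 0.0229), and r = 0.561 without the 2 farthest libraries (adjusted p = 0.0562). Ryr2 and Casq2 had r = 0.680 and rho = 0.527 (permutation, adjusted p = 0.00409 and 0.0481), and r = 0.530 without the 2 farthest libraries (adjusted p = 0.0594). Without the 2 farthest libraries, the last 2 relations no longer passed, and that of Casq2 with Cacna1c passed by r but not by rho. In the 7 high-numbered rats r was -0.158 for Casq2 with Cacna1c, 0.863 for Ryr2 with Cacna1c and 0.145 for Ryr2 with Casq2 (exact permutation, adjusted p = 0.781, 0.106 and 0.781). With groups centred, these 3 pairs had r of 0.454, 0.445 and 0.505 (permutation, adjusted p = 0.0875, 0.0875 and 0.0775).

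Atp2a2 with Casq2 (r = 0.472, rho = 0.395, permutation, adjusted p = 0.0674 and 0.142) and with Cacna1c (r = 0.240, rho = 0.294, permutation, adjusted p = 0.358 and 0.252) missed the threshold. In the 7 high-numbered rats these pairs had r = 0.350 and 0.695 (exact permutation, adjusted p = 0.765 and 0.331). The pump gene had its one relation past the threshold with Ryr2.

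**Figure D4:**
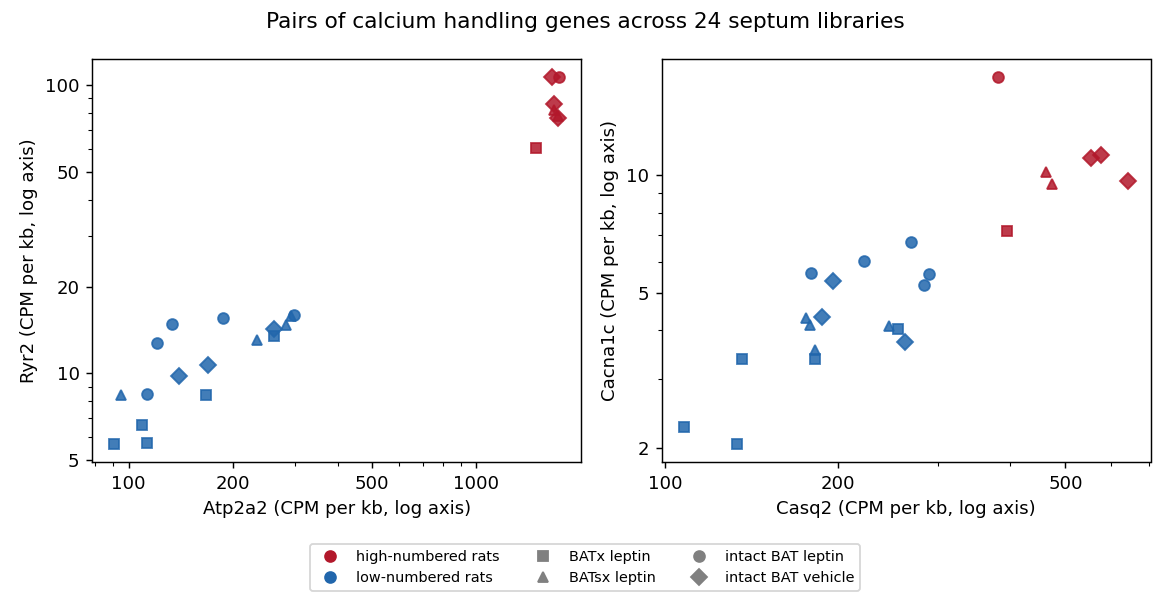
Levels of Ryr2 against Atp2a2 and of Cacna1c against Casq2 in 24 libraries (CPM per kb, log axes), with colours for the rat sets and symbols for the groups. Within low-numbered rats Atp2a2 and Ryr2 have r = 0.79, and the high-numbered rats form a separate cluster in both panels.

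Many other genes followed each member more closely than the other members did. Among 8711 genes with a mean of at least 10 CPM, the gene most like Atp2a2 across the 17 low-numbered libraries was ENSRNOG00000011639 (r = 0.978, rho = 0.973, chromosome 2). The gene most like Ryr2 was ENSRNOG00000011425 (r = 0.966, rho = 0.934, chromosome 5). Ryr2 stood at rank 496 in likeness to Atp2a2, with 5.68% of genes above it, and Atp2a2 at rank 150 in likeness to Ryr2, with 1.71% above it. The highest r was 0.938 for Casq2 and 0.953 for Cacna1c. These values are a description over libraries that share their scaling and depth.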

How the data were processed

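The libraries were 24 paired-end mRNA libraries of septum, per the labels' protocols, and the authors deposited raw counts for 30562 genes. The submitters' processing notes name STAR 2.7.10a, featureCounts 2.0.2, DESeq2 and R 4.4.1. Per the file header, the counting was by featureCounts 2.0.6 against Ensembl 113 gene models of mRatBN7.2, with no strand option. Both mates of a pair were probably counted, since 19013 table cells hold 2 and 5161 hold 1. Reads on opposite strands cannot be told apart. A further 5 columns of counts, which belong to none of the listed samples, were left out. No 2 libraries had identical counts.

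Genes were kept with filterByExpr (17347 of 30562, including all 4 members followed) and TMM scaling was applied. The test was edgeR's robust quasi-likelihood F test (version 4.0.16, R 4.3.3) in 1 model of all 24 libraries, with Benjamini-Hochberg adjustment over all tested genes at 0.05. The code was tested on simulated counts. The SE of an edgeR log2 difference was taken as its absolute value divided by the square root of F in that test. Log2 CPM used a prior count of 2. Ratios were tested with exact two-sided permutation tests of log2 values, and correlations with 100000 permutations (exact for 7 libraries). The alternatives used DESeq2 1.42.0, limma 3.58.1, other scalings and filters, a term for the split by rat number, and libraries left out. Ratios to genes other than Pln, the further pairs of members and the set term in the test of any difference were chosen after the data were seen. The members, the gene lists and the rat-number boundary were chosen with earlier results of these data known.

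The rule for named genes was to describe all members and the genes most like them by Pearson r over the 17 low-numbered libraries, of which the first for Atp2a2 and for Ryr2 are named. It also covered 7 pathway lists and 10 cell type marker lists by symbol. These lists were not run, because the reference tables gave a symbol for 0 of the 30562 IDs. Promoter sequences came from RefSeq (GRCr8), matched by symbol for 4 of 4 members followed.

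Replicate numbers were not taken to pair rats, because the labels state no pairing. Of 36 same-numbered pairs, 24 had a correlation of deviations over 0.1. These correlations cannot decide on pairing, because the rat sets run along the replicate numbers. Replicates 1 to 3 were low-numbered rats in every group, and replicate 6 was a high-numbered rat in every group. Pairs of replicate 1 had correlations of 0.192 to 0.491, those of replicate 4 of -0.340 to 0.198 and those of replicate 6 of 0.652 to 0.730.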

Additional observations from a re-analysis of the deposited data

Results flagged for a closer look

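In 28 groups of 6 values (4 members and 3 ratios in each of 4 groups), 8 had a library far from the other 5, by Dixon's test at the 95% level (0.625). Chance flags about 1 in 20 independent groups, but these groups share rats and genes, so the number of flags is a description. The 8 values belong to the sixth replicates of BATx and of intact BAT on leptin, each the single high-numbered rat of its group.

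In the BATx rat, Atp2a2 had 1482 CPM per kb, with 261 in the next BATx rat, and Ryr2 had 60.6, with 13.4 in the next. Its ratio of Atp2a2 to Casq2 was 3.75, with 1.02 in the next rat, and its ratio of Atp2a2 to Cacna1c was 207, with 64.6 in the next. In the intact BAT rat on leptin, Atp2a2 had 1724 CPM per kb, with 298 in the next rat of its group, Ryr2 had 107, with 16.0 in the next, and Cacna1c had 17.8, with 6.71 in the next. Its ratio of Atp2a2 to Casq2 was 4.52, with 1.04 in the next rat.

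The other 5 high-numbered rats spanned 1652 to 1714 CPM per kb of Atp2a2 and 77.0 to 106 of Ryr2. The BATx rat lay below them for both genes, and the leptin rat lay just above them. The 17.8 CPM per kb of Cacna1c in the leptin rat lay above the other 6 high-numbered rats, of which the highest had 11.2.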

How the results depend on the processing

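As designed, 0 of 4 members passed in each comparison, and leaving out any 1 library left 0 (0 to 0 in all 6 comparisons). The count was 1 (leptin against vehicle), 2 (BATx against intact BAT) and 1 (BATsx against intact BAT) with the set term (6.13%, 18.6% and 6.65% of tested genes). For BATx against intact BAT it was 1 in low-numbered rats alone, 2 with the set term and length gradient, 1 with limma-voom and 1 with the replicate block (Cacna1c, edgeR adjusted p = 0.0137), where 11.4%, 7.48%, 17.4% and 5.89% of tested genes passed. The block moved no other count of members. Over all tested genes it called 21% for leptin against vehicle (0.674% as designed) and 2.95% for BATsx against intact BAT (0% as designed). A library correlated best with its own number in 12 of 36 cases, and the labels state no pairing by these numbers. Limma-voom with sample weights gave 4 for leptin, BATx and BATsx against vehicle, where it called 60.7%, 55.7% and 46.4% of all tested genes. The any-difference test of Cacna1c passed with the set term (edgeR adjusted p = 0.00306). Signs turned as follows (log2). For leptin against vehicle, Ryr2 was 0.19 with the set term, 0.23 in low-numbered rats, 0.22 with the gradient and 0.33 without rats 56 to 62, Casq2 was 0.000697 with the set term and 0.21 in low-numbered rats, Atp2a2 was 0.0048 without rats 56 to 62 and Cacna1c was -0.61 by limma-voom. For BATx against intact BAT, Atp2a2 was 0.012 by limma-voom. For BATsx against intact BAT, Ryr2 was -0.15, -0.057, -0.19 and -0.30 with the set term, in low-numbered rats, with the gradient and without rats 56 to 62, and Casq2 was -0.25, -0.34 and -0.20 in the first 3 of these, -0.085 with the replicate block and -0.19 by limma-voom. For BATsx against vehicle, with the set term, in low-numbered rats and with the gradient, Atp2a2 was 0.18, 0.26 and 0.15 and Ryr2 was 0.041, 0.17 and 0.030. Among ratios, BATx against vehicle gave 0.14 and 0.033 for Atp2a2 to Casq2 and 0.24 and 0.18 for Atp2a2 to Cacna1c within sets and in low-numbered rats. BATsx against vehicle gave -0.17 for Atp2a2 to Casq2 by medians, and 0.23 and 0.31 for Atp2a2 to Cacna1c within sets and in low-numbered rats. In high-numbered rats r turned to -0.16 for Casq2 with Cacna1c, while that of Atp2a2 with Ryr2 kept its sign at 0.65 but missed the threshold. The cause of each turn was not tested.

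Leaving out 1 library turned a sign in these ranges: Cacna1c in leptin against vehicle (-0.37 to 0.20), Atp2a2 (-1.53 to 1.12) and Ryr2 (-1.86 to 0.31) in BATx against intact BAT, and Ryr2 (-0.16 to 1.39), Casq2 (-0.12 to 0.21) and Cacna1c (-0.61 to 0.033) in BATsx against intact BAT. Ratios did so for Atp2a2 to Ryr2 in BATsx against vehicle (-0.022 to 0.17) and in BATx against BATsx (-0.031 to 0.16), for Atp2a2 to Casq2 in BATx against intact BAT (-0.023 to 0.79) and BATsx against vehicle (-0.21 to 0.36), and for Atp2a2 to Cacna1c in BATsx against vehicle (-0.40 to 0.24). The planned ratio and correlation with Pln and the gene lists were not run. The turns in leptin against vehicle came without leptin replicate 6 or vehicle replicate 1, 2 or 3, those in BATx against intact BAT without leptin replicate 6 (genes) or BATx replicate 6 (ratio), and those in BATsx against intact BAT without BATsx replicate 5 or 6 or leptin replicate 5 or 6. Over all genes, leaving out 1 library moved the number called to between 1 and 4454 (leptin against vehicle), 7 and 1037 (BATx against intact BAT) and 0 and 647 (BATsx against intact BAT). The lowest count of a member in a library was 3441 reads (Cacna1c), so counting error was small beside the spread between rats.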
